A study of Mus musculus with 6 samples.

Results

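The regions described here were open in adipocytes of the beige and brown type and had no called peak in adipocytes of the white type. Open chromatin was mapped by ATAC-seq, in which a transposase cuts accessible DNA, in 2 libraries each of beige, white and brown adipocytes from wild type mice. The intervals of the 6 deposited peak lists were merged wherever they overlapped or touched, which gave 194496 regions. The members were selected on these called peaks: a region was kept if it held a peak in both beige and both brown libraries and in neither white library. This left 2438 regions, or 1.25% of all regions.

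All cells came from the stromal vascular fraction (SVF, the cells other than mature adipocytes that collagenase frees from fat) of male C57BL/6J mice aged 3 to 4 weeks, and were collected 7 days after differentiation began. Beige and white adipocytes were made from inguinal fat and brown adipocytes from brown fat. The beige and brown media held insulin (5 µg/ml), dexamethasone (5 µM), isobutylmethylxanthine (0.5 mM), T3 (1 nM) and rosiglitazone (1 µM), and insulin, T3 and rosiglitazone were kept after 48 h. The white medium held insulin (5 µg/ml), dexamethasone (1 µM) and isobutylmethylxanthine (0.5 mM), then insulin alone, so it lacked T3 and rosiglitazone throughout. These insulin doses are those of the labels. The study's methods give lower ones, lower for beige than for white. By the labels, beige and brown cells thus shared a medium and came from different depots, and beige and white cells shared a depot and had different media. What the medium did and what the cell type did cannot be told apart in these regions. The labels do not say whether libraries came from separate mice or cultures. The study counts 2 biological replicates per ATAC-seq group, which was read as meaning beige and white. It does not say what was separate.

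Brown and beige adipocytes burn fuel to make heat through uncoupling protein 1, whereas white adipocytes mainly store triglyceride. Their enhancers, stretches of open chromatin away from gene starts, are bound by PPARγ with its partner RXR, by C/EBP factors, by EBF2 and by nuclear factor I proteins. Rosiglitazone is a ligand of PPARγ, T3 of the thyroid hormone receptors and dexamethasone of the glucocorticoid receptor.

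The sequences of 9 members are given first, because the results below turn on where such regions lie and on which letters they hold. They were read from the plus strand of mm10, 5′ to 3′, around the summit of the region. The Ucp1 region (chr8:83287722-83288021) is shown since it lies upstream of the gene that marks thermogenic adipocytes. Its capitals mark the only exact match in the stretch, on either strand, to AGGNCA, the nuclear receptor half-site as searched here. Half-sites with other letters were not searched, so the stretch may hold some.

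Ucp1: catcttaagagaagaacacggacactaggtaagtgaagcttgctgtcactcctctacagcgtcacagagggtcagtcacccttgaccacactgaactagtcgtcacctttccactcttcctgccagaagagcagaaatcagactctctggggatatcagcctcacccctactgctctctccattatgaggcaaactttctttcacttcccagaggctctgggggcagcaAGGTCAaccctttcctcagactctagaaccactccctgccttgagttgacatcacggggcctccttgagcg

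The next 4 members hold a DR1 match, the direct repeat of 2 half-sites with 1 base between that PPARγ and RXR bind together, and capitals mark the match. Plin4 (chr17:56111131-56111331) encodes a lipid droplet protein, and its member lay between genes. The members of Chst11 (chr10:83119976-83120176), which encodes a chondroitin sulfotransferase, and of Sh2b2 (chr5:136229343-136229543), which encodes an adaptor of insulin signalling, lay in introns within clusters of members. The member of Slc25a33 (chr4:149789880-149790080), which encodes a mitochondrial pyrimidine nucleotide carrier, had the highest lowest percentile over the 4 libraries (60.1) of all members with DR1, by a rank explained below. It was chosen after its values were seen.

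Plin4: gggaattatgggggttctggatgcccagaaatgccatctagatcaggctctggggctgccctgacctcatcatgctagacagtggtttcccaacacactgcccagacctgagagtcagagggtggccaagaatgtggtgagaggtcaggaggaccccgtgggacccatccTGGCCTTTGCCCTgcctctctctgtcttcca
Chst11: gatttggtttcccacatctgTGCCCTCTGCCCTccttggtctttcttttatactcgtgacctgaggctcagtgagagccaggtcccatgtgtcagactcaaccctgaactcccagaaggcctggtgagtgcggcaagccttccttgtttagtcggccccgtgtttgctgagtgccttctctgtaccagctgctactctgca
Sh2b2: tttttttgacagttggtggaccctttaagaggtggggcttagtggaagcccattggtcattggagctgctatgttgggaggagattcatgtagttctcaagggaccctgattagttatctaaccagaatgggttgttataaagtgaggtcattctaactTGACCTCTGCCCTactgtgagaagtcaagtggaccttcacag
Slc25a33: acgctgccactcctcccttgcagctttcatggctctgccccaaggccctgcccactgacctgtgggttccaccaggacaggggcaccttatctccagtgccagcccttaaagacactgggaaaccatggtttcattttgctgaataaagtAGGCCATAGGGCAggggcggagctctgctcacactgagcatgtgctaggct

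Another 4 members, also chosen after their values were seen, show other matches, again in capitals. The member of Pdk4 (chr6:5507960-5508160), a kinase that restrains pyruvate dehydrogenase, holds DR4, the repeat with 4 bases between that thyroid hormone receptors bind. Sgk1 (chr10:21785807-21786007), a kinase gene induced by glucocorticoids, holds the inverted repeat of the glucocorticoid receptor (GR). Crat (chr2:30409569-30409769), carnitine acetyltransferase, holds the extended half-site of the estrogen-related receptors (ERR). Acsl1 (chr8:46387213-46387413), which activates fatty acids, holds the palindrome of the EBF factors. The Crat member is intronic and the other 3 are intergenic.

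Pdk4: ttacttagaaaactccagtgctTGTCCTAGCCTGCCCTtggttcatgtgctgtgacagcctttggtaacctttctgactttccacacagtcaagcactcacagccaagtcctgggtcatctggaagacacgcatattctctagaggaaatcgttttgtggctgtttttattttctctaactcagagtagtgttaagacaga
Sgk1: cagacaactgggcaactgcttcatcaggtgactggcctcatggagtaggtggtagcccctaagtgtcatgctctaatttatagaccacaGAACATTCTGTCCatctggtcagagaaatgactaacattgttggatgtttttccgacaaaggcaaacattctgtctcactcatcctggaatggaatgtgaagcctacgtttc
Crat: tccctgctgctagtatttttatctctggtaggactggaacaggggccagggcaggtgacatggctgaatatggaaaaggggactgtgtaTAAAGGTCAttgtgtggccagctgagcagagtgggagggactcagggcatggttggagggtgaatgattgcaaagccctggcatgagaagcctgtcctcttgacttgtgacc
Acsl1: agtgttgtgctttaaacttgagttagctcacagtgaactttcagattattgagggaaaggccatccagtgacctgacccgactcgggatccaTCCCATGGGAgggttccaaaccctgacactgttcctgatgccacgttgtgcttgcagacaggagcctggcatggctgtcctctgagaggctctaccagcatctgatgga

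The 6 libraries were alike in their lists and in their marker promoters. The lists held 109143 to 127490 intervals and covered 1.34% to 1.73% of the genome. Regions found in both replicates were 66.9% of those in either for beige, 57% for white and 60.7% for brown. All 8 adipocyte marker genes (among them Adipoq and Pparg) had a promoter peak in every library. Of 5 thermogenic markers, Cidea, Dio2, Ppargc1a and Elovl3 had one in every library and Ucp1 only in brown. Promoter peaks stood at 2 to 3 of 12 macrophage, 7 to 8 of 12 endothelial, 12 to 14 of 16 progenitor, 1 to 4 of 12 skeletal muscle and 4 to 5 of 10 Schwann and nerve marker genes per library. Peak lists do not hold read depth, which the study reports for beige and white only. A region without a called peak may still be open below the calling threshold.

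Most regions shared by beige and brown adipocytes were open in white adipocytes too. Of 67545 regions with a peak in all 4 beige and brown libraries, 58714 (86.9%) had one in both white libraries, 6393 (9.46%) in 1 white library and 2438 (3.61%) in none. Either white library alone accounted for a similar number of the 6393, with 3217 for replicate 1 and 3176 for replicate 2. Seen from beige, 27.9% of the 8740 regions open in both beige and no white library were open in both brown libraries. Seen from brown, it was 42.7% of 5714 regions. The counterpart classes held 2257 regions for beige and white without brown and 472 for white and brown without beige. These counts are the classes that the rule made and carry no test: 2 libraries against 2 allow no two-sided permutation p below 0.333.

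Peaks in the members were of low to middle rank. The rank of a peak was its percentile by −log10 q within its own library, which cannot be compared as signal between libraries. Its median over the members was 34.2 in beige replicate 1, 39.2 in beige replicate 2, 39 in brown replicate 1 and 39.2 in brown replicate 2. In the regions open in all 6 libraries it lay between 71.7 and 76.1. No member had a peak above percentile 90 in any library, whereas 18.4% to 21.6% of the regions open in all 6 did. Low rank was not particular to the members. Where beige shared a peak with white and brown had none, medians ran from 32.9 (beige replicate 1) to 41.3 (white replicate 2). That class had no peak above percentile 90 in its beige and white libraries either. The lowest −log10 q of a member's 4 peaks was under 5 in 1381 members (56.6%) and 10 or more in 161 (6.60%). The rank did not lean to one cell type in most members: both brown percentiles lay above both beige ones in 24.7%, and the reverse held in 19.9%.

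**Figure D1:**
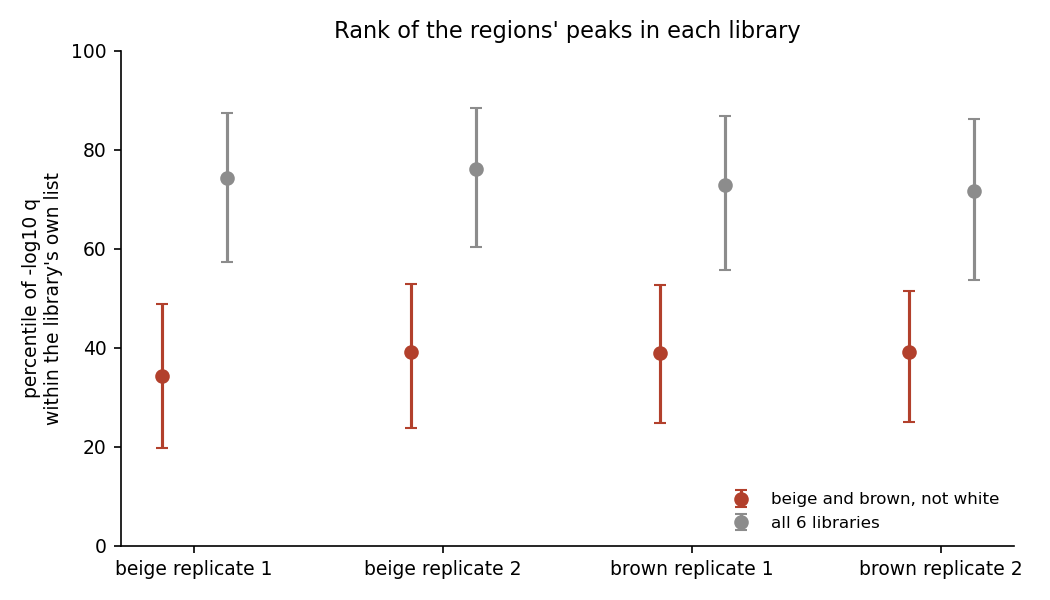
Percentile of −log10 q within each library's own list (vertical axis) for the regions open in beige and brown and not white and for those open in all 6 libraries. Points are medians and bars run from the lower to the upper quartile. In each of the 4 libraries the median of the members lay between 34.2 and 39.2, that of the other class between 71.7 and 76.1.

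The values next to the calling threshold were these. The members with the lowest −log10 q lay near Layn (1.32), Dad1 (1.33) and Adcy7 (1.43). Among the regions kept out by a peak in 1 white library, that peak was lowest near Cpeb3 (1.3), Ptp4a1 (1.35) and Insig2 (1.36). The threshold is 1.3 on this scale. Over all members the median of the lowest −log10 q was 4.65, and over the 6393 regions with 1 white peak the median of that peak was 6.85, under 5 in 28.2%.

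The strongest members, ranked by their lowest percentile over the 4 libraries, lay at genes of varied function. The first was a 250 bp region in an intron of Hdgf, a growth factor gene, at chr3:87910942-87911191. Its percentiles were 83.1 and 81.9 in beige and 80.2 and 72.6 in brown. The member near Erlin2, an endoplasmic reticulum lipid raft gene, followed with 70.7 as its lowest percentile, then a promoter member of Klc3, a kinesin light chain gene, with 70.3. Ptprq, 9330159F19Rik, Ltbp4, Poc1a, Thrsp, C1qtnf3, Brd2, Nfil3, Mybpc3, Cmtm4 and Cog6 were also among the first 15, with lowest percentiles from 68.8 down to 63.5. Of these 15, 4 were promoter members, at Klc3, Ltbp4, Thrsp and Brd2. Thrsp, a lipogenic gene that responds to thyroid hormone, reached percentiles of 65.5 and 71.5 in beige and 71.4 and 79.7 in brown.

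The members were wider than most regions and narrower than those open in all 6 libraries. Their median width was 333 bp (quartiles 270 and 418 bp), against 255 bp for all regions, 298 bp for other regions open in exactly 4 libraries and 588 bp for those open in all 6. The widest, in an intron of Cmtm4, spanned 1018 bp. A merged region widens with the number of libraries in it, so the single peaks are given too. Peaks in the members had medians of 228 and 249 bp in beige and 248 and 228 bp in brown, below the medians of the whole lists (252 to 267 bp). Between 3.69% and 7.10% of members held more than 1 summit in a library, against 25.9% to 41.6% of regions open in all 6.

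Beige and brown summits of a member lay about as close together as replicate summits. The rule asked only for intervals in 1 region, though narrow peaks leave summits little room to differ. The median distance between a beige and a brown summit was 23.0 to 27.0 bp over the 4 pairs of libraries, and 73.5% to 77.5% of summits lay within 50 bp of each other. Between the beige replicates the median was 24.0 bp and between the brown replicates 25 bp. The summits were thus as close between cell types as between replicates of a type.

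The members lay away from gene starts. A promoter was taken as 1 kb to each side of the start of a protein-coding transcript. Of the members, 132 lay there, or 5.41% (95% Clopper-Pearson interval 4.55 to 6.39). The share was 7.53% (7.03 to 8.05) of other regions open in exactly 4 libraries, 24.3% (23.9 to 24.6) of regions open in all 6 and 11.6% of all regions. Introns held 1069 members (43.8%), the space between genes 1147 (47.0%), coding exons 47 (1.93%) and UTRs 43 (1.76%). The median distance to the nearest start was 28917 bp, close to that of all regions (29717 bp), and 56.5% of members lay 10 to 100 kb away. Another 48 members (1.97%) stood at the start of a long noncoding RNA only, against 2.11% of other regions open in exactly 4 libraries and 2.29% of all regions. Intervals here and below cover counting error only, and the differences between classes were not tested.

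**Figure D2:**
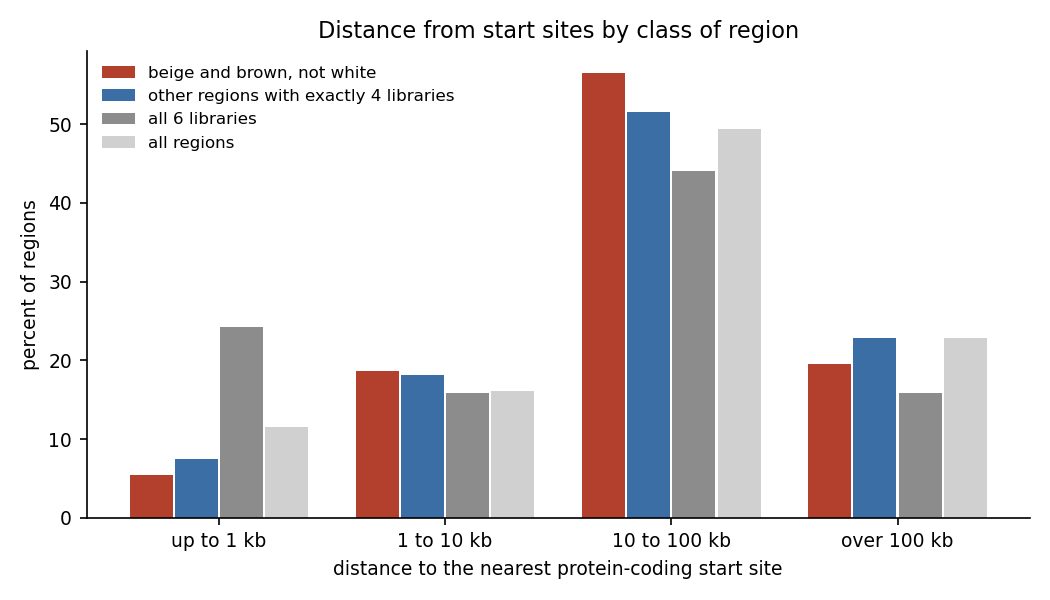
Percent of regions (vertical axis) by distance to the nearest protein-coding start site, for the members and 3 other sets. The members had 5.41% of regions within 1 kb, against 24.3% for regions open in all 6 libraries, and 56.5% at 10 to 100 kb.

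Some promoter peaks that beige and brown shared without white stood at a promoter already open in all 6 libraries, and more did not. The 132 promoter members stood at 130 genes. For 57 of the 132 members the same promoter also held a region open in all 6 libraries. Of the other 75, 14 were at genes with such a region at another start site over 1 kb away, and 61 had one at neither. The same count was not made for promoter regions of other classes, so it is not known whether this is usual. The genes of the lists below with a promoter member were Acsl1, Crym, Gpd1, Slc6a8 and Thrsp. The Acsl1 member covered a start of the gene, 15 bp from its summit, that is distinct from the start open in all 6 libraries. Its percentiles were 38.5 and 29.8 in beige and 58.7 and 62.7 in brown. Gpd1, the cytosolic glycerol-3-phosphate dehydrogenase, had its promoter member 6 bp upstream (25.7 and 36.2 in beige, 8.92 and 33.8 in brown) and another 2041 bp upstream. Neither Gpd1 nor Thrsp nor Crym, which encodes a thyroid hormone binding protein, had a region open in all 6 libraries at that promoter.

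White adipocytes often had a peak in the neighbourhood. The nearest white peak lay at a median of 3209 bp from a member, and 629 members (25.8%) had one within 1 kb. For the regions of beige and white, the nearest brown peak lay at a median of 3254 bp, and 31.6% had one within 1 kb.

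The members were spread over the genome and seldom stood together. Their share of all regions ran from 1.06% on chromosome 16 to 1.52% on chromosome 7, and none of the 46 regions on chromosome Y was a member. The median gap between neighbouring members was 473732 bp. The region that followed a member was itself a member in 66 cases, 2.71% (2.10 to 3.43), which is 2.16 times the share of members among all regions. The same ratio ran from 0.875 to 2.03 in the 5 other classes of regions open in 1 or 2 cell types, and it was 1.09 for regions open in all 6 libraries. With gaps of up to 12500 bp, 2242 members stood alone, 89 pairs formed, and there were 6 clusters of 3 and none larger.

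The 6 clusters held no region open in all 6 libraries. In an intron of Gpd2, the mitochondrial glycerol-3-phosphate dehydrogenase, 3 members lay within 3691 bp (chr2:57252526-57256216). Their lowest percentiles were 38.8, 40.7 and 15.5. Upstream of Id3, an inhibitor of helix-loop-helix factors, 3 members between 32811 and 44878 bp from the start spanned 12650 bp (chr4:136098275-136110924). Introns of Chst11 and Tmem266 held a cluster each, over 9727 and 6141 bp. The cluster at Sh2b2 reached into the space beside Prkrip1 and spanned 12310 bp. At Unc13a, a synaptic vesicle priming gene, the cluster took in the promoter, and only there did a white peak lie between the members. Its members at chr8:71670423-71670667 and chr8:71670681-71670942 lay within 100 bp of each other, so the cluster counts nearly touching peaks separately.

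Counted by gene, the members were nearest to 2032 of 21827 protein-coding genes, or 9.31%. Of these, 1701 had 1 member, 271 had 2 and 60 had 3 or more. Dlg2, a synaptic scaffold gene, had 7 members among its 82 regions, and Myc, the proto-oncogene, had 6 among 145. All 7 of Dlg2 were intronic and all 6 of Myc lay between genes, 186683 bp or more from its start. Slc1a3, a glutamate transporter gene, had 4 of 35, and Cd36, which takes up fatty acids, 4 of 41. Ppp2r3a, Sipa1l2, Nav2, Celf4, Tgfbr2 and Tle3 had 4 each. A share that takes gene size into account was highest, among the 20 genes with the most members, at Unc13a (3 of 8 regions), Tmem266 (3 of 11) and Fam222a (3 of 14). Some of these members nearly touch and still count separately. At Unc13a, chr8:71670423-71670667 and chr8:71670681-71670942 lay within 100 bp of each other. So did chr2:168668428-168668682 and chr2:168668698-168669046 at Atp9a. Atp9a, Id3, Zfp710, Pdk4, Acsl1, Ntng2 and Kcnj15 had 3 each.

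Genes were then read by 16 lists that fit the tissue and the media. The lists overlap, Pdk4 being in 3 of them. For each list the share of members among the regions nearest to its genes is given, to be read beside 1.25% for all regions. The number of its genes with a member is given beside 9.31% of all genes, but that comparison is not even. A gene with more regions has more chances of a member. Of the 21827 genes, 18945 had any region, whereas the 25 regulators of fate alone had 778 regions. The percent of genes was not adjusted for this, so the share of regions is the one to compare.

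Thermogenic effectors, the genes of heat production, had a member at 8 of 20 genes (40.0%). Of their 249 regions, 14 were members, 5.62% (3.11 to 9.25). With lists of equal length this share was 3.54%, below the 4.79% of PPAR target genes. The Ucp1 member lay 2480 bp upstream of the start and was 349 bp wide. Its percentiles were 34.4 and 8.39 in beige and 50.6 and 50.2 in brown, so the second beige library ranked it low. It was the only region near Ucp1 with a peak in both beige libraries and not in white. Ppargc1a and Ppargc1b, coactivators of mitochondrial genes, had 3 members each, of 54 and 33 regions. Acot11 and Pank1 had 2 each, and Cidea, Dio2 and Slc6a8 had 1 each. Dio2 makes T3 from thyroxine, and its member lay 165725 bp upstream. The strongest of the thermogenic list was a Ppargc1b member 37839 bp upstream, with percentiles of 65.0 and 61.9 in beige and 78.1 and 84.6 in brown.

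PPAR target genes of adipocytes had 21 members of 409 regions, 5.13% (3.21 to 7.74), at 11 of 36 genes (30.6%). Cd36 had 4 members, Pdk4 and Acsl1 had 3, Gpd1 and Vegfa had 2, and Adipoq, Fabp4, Lipe, Mgll and Plin4 had 1. The Pdk4 members lay 11751 and 2654 bp upstream and 15351 bp downstream of the start. The one at 2654 bp had percentiles of 31.2 and 66.9 in beige and 72.6 and 81.3 in brown. The member of Lipe, hormone-sensitive lipase, lay 1896 bp upstream of a start, with 51.6 and 55.2 in beige and 75.6 and 78.6 in brown. In both, the brown peaks ranked above the beige ones. The Plin4 member, whose DR1 is printed above, had 58.9 and 50.7 in beige and 71.3 and 75.2 in brown. No region of this list was of the class open in beige and white and not brown, which made up 1.16% of all regions.

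**Figure D3:**
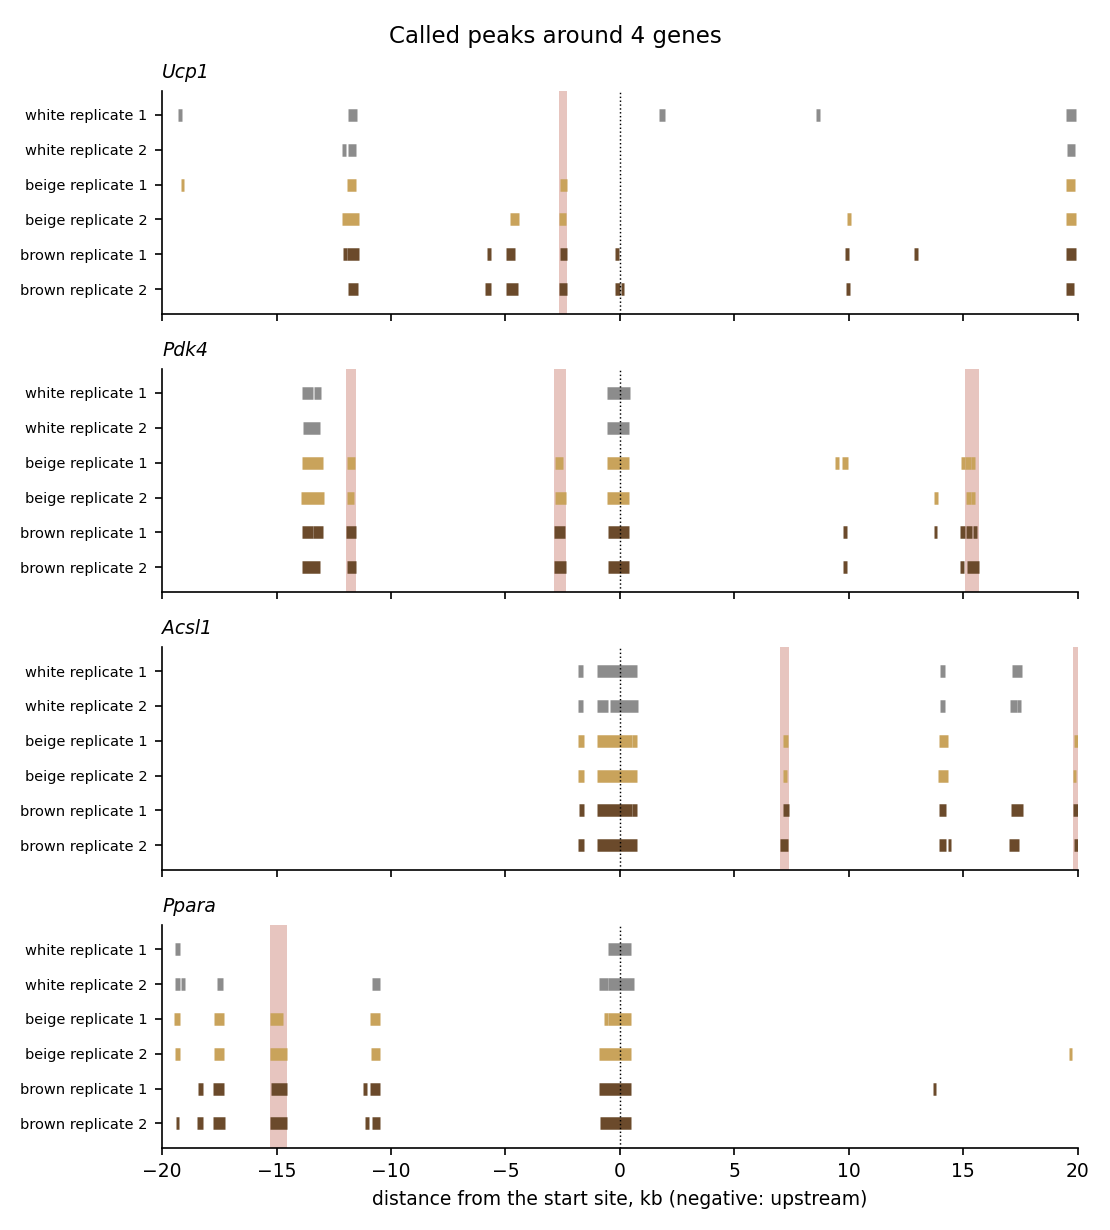
Called peaks of the 6 libraries (rows, coloured by cell type) around the start sites of Ucp1, Pdk4, Acsl1 and Ppara, by distance from the start in kb. Shaded bands are regions open in beige and brown and not white: 1 at Ucp1, 3 at Pdk4, 2 in view at Acsl1 and 1 at Ppara, none with a white peak.

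Regulators of brown and beige fate had a member at 13 of 25 genes (52.0%), and 20 of their 778 regions were members, 2.57% (1.58 to 3.94). Tle3, a corepressor that favours the white programme, had 4. Ppara, a PPAR of oxidative tissues, Nfia, Rxra and Zfp516 had 2 each. The Ppara member 14807 bp upstream was 742 bp wide, with percentiles of 61.4 and 72.8 in beige and 75.7 and 78.0 in brown. Klf15, a regulator of fuel use, had 1 member with 75.2 and 74.4 in beige and 55.3 and 70.1 in brown. Prdm16 and Ebf2, which set the brown fate, had 1 each with lowest percentiles of 14.2 and 1.10.

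Genes of fuel use had members at 11.1% to 26.9% of their genes. Lipid droplet and lipolysis genes had 9 of 237 regions, 3.80% (1.75 to 7.09), at 7 of 26 genes, among them Gpd1 with 2 members and Adrb1, Cidea, Lipe, Mgll and Plin4 with 1 each. Fatty acid oxidation genes had 6 of 197, 3.05% (1.13 to 6.51), at 4 of 25 genes, Acsl1, Acadl, Crat and Eci2. Regions open in brown alone made up 3.55% of the regions of this list (7 regions), against 0.878% of all regions. A larger share than among all regions was thus not particular to the members. The Crat member had percentiles of 45.4 and 59.5 in beige and 67.3 and 63.8 in brown. Mitochondrial biogenesis genes had 6 of 165, 3.64% (1.35 to 7.75), all at Ppargc1a and Ppargc1b, 2 of 18 genes.

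The lists of the hormones in the media had lower shares than the thermogenic and PPAR lists. Glucocorticoid receptor and target genes had 11 of 434 regions, 2.53% (1.27 to 4.49), at 6 of 21 genes, with 3 at Pdk4, 2 each at Nr3c1, Sgk1 and Tsc22d3 and 1 each at Fkbp5 and Nr3c2. Thyroid hormone genes had 8 of 427, 1.87% (0.812 to 3.66), at 5 of 21 genes. Dio3, which inactivates T3, had 3, Rxra had 2 and Dio2, Thrsp and Crym had 1.

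Markers of the cell types gave mixed shares. Brown depot markers had 8 of 334 regions, 2.40% (1.04 to 4.66), at 5 of 13 genes, with 3 at Pdk4 and 2 at Pax7. White adipocyte markers had 6 of 269, 2.23% (0.823 to 4.79), at 5 of 14 genes, with 2 at Lep. Beige-selective markers had 0 of 163, at none of 13 genes, which allows up to 2.24% by the same interval. Progenitor markers had 4 of 339 (1.18%), endothelial markers 4 of 252 (1.59%), skeletal muscle markers 3 of 75 (4.00%, 0.833 to 11.2), Schwann and nerve markers 1 of 95 (1.05%) and macrophage markers 0 of 89, which allows up to 4.06%. The genes with a member were 4 of 16 progenitor, 4 of 12 endothelial, 2 of 12 skeletal muscle, 1 of 10 Schwann and nerve and 0 of 12 macrophage markers. In all, 94 of the 2438 members were nearest to 1 of the 260 genes of these lists.

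**Figure D4:**
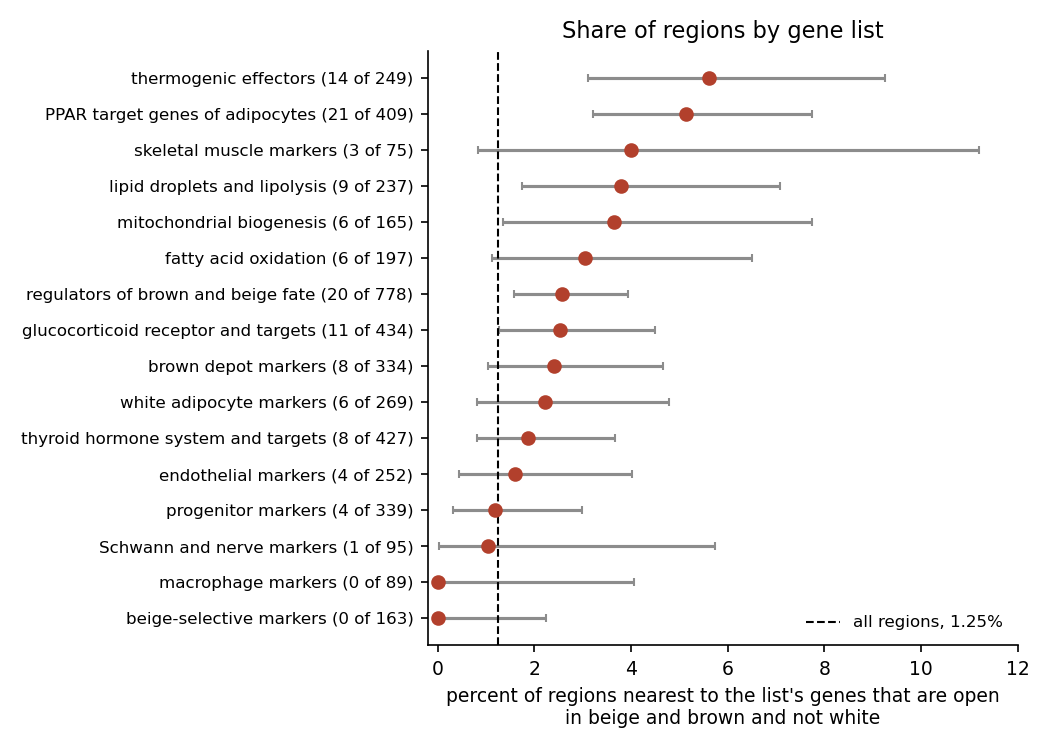
Percent of the regions nearest to each list's genes that are open in beige and brown and not white (horizontal axis), with 95% Clopper-Pearson intervals and, in brackets, the counts. The dashed line is the share among all regions, 1.25%, and 6 intervals lie above it: thermogenic effectors, PPAR target genes, lipid droplets and lipolysis, mitochondrial biogenesis (from 1.35), regulators of fate (from 1.58) and, narrowly, glucocorticoid genes (from 1.27). This is no test, since the lists were chosen with earlier results known and share members. All 6 mitochondrial biogenesis members are also thermogenic members. The 3 at Pdk4 count in both the PPAR and the glucocorticoid list. Regions near 1 gene are counted as if separate.

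Short motifs were then counted in the 201 bases around each region's summit, on both strands. The share of members with the EBF palindrome (TCCC and GGGA with 2 bases between) was 3.20% (2.54 to 3.98), 78 members. It was 1.60% (1.4 to 1.9) in other regions open in exactly 4 libraries, 1.55% in those open in all 6 and 1.41% in all regions. All regions weighted to the members' GC content also gave 1.41%. Away from promoters the shares were 3.17% for members and 1.63% for other regions of 4 libraries. Among the classes open in 1 cell type, beige alone had 1.40% and brown alone 2.17% (1.53 to 2.98). The EBF share was singled out after it was seen.

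Nuclear receptor motifs were rare. DR1 (AGGNCA repeated with 1 base between) was matched in 21 members, 0.861% (0.534 to 1.31), against 0.473% (0.351 to 0.623) in other regions of 4 libraries, 0.344% in regions open in all 6 and 0.467% in all regions. DR4, the same with 4 bases between, was in 1.07% (0.698 to 1.56), against 0.525% of all regions, 1.64% of beige alone and 0.293% of brown alone. The GR repeat (GNACA inverted with 3 bases between) was in 1.07% (0.698 to 1.56), against 0.634% of all regions. ERR (TNA followed by AGGTCA) was in 1.44% (1.00 to 1.99), against 1.06%. For GR and ERR, brown alone had 0.879% and 1.41%, and beige alone 0.582% and 1.01%. White and brown without beige had 0.636% and 1.91%. DR1, DR4 and ERR share a half-site, so the same bases can count for several. The Ucp1 member matched none of the 17 motifs within 100 bp of its summit. Forms of the motifs with other letters were not searched, so this does not show that it lacks such sites.

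Motifs of adipocyte factors were commoner, and they have fewer fixed letters than the nuclear receptor motifs. The NFI half-site (TTGGCA) was in 21.3% of members (19.7 to 23.0), against 17.4% of other regions of 4 libraries and 15.6% of all regions. It was in 22.2% of white and brown without beige and 16.7% of beige and white without brown. C/EBP (TTGC and AA with 2 bases between) was in 17.8% (16.3 to 19.4), against 15.1% and 12.6%. For C/EBP the same 2 classes had 13.3% and 18.4%. Neither share was thus particular to the members. AP1 (TGANTCA) was in 24.5%, against 25.4% and 21.3%, and lay at 15.2% in beige alone and 30.4% in brown alone.

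Other motifs are given beside regions open in all 6 libraries, which hold more promoters, and beside other regions of 4 libraries. ETS (CCGGAAG) was in 1.31% of members, against 4.75% of regions open in all 6 and 1.41% of other regions of 4 libraries. KLF/SP (GGGCGGG) was in 4.39%, against 13.7% and 3.92%. The CTCF core was in 3.61% (2.90 to 4.43), against 6.58% and 4.82%, and in 8.65% of beige alone. CRE (TGAC next to GTCA) was in 0.861% of members (0.534 to 1.31), 21 in all, against 1.23% and 0.322% (0.223 to 0.449). It thus lay below the first set and above the other. All regions had 0.657% and brown alone 0.703%, both inside the members' interval, and beige alone had 0.291%. The remaining shares in members and in all regions were 16.9% and 14.1% for TEAD (GGAATG), 6.93% and 5.37% for RUNX (TGTGGTT), 25.2% and 24.8% for NFY (CCAAT), 2.95% and 2.77% for MEF2 (CTA and TAG with 4 bases between), and 1.64% and 1.98% for IRF (GAAA repeated with 2 bases between). A match describes the letters and is not a bound site.

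**Figure D5:**
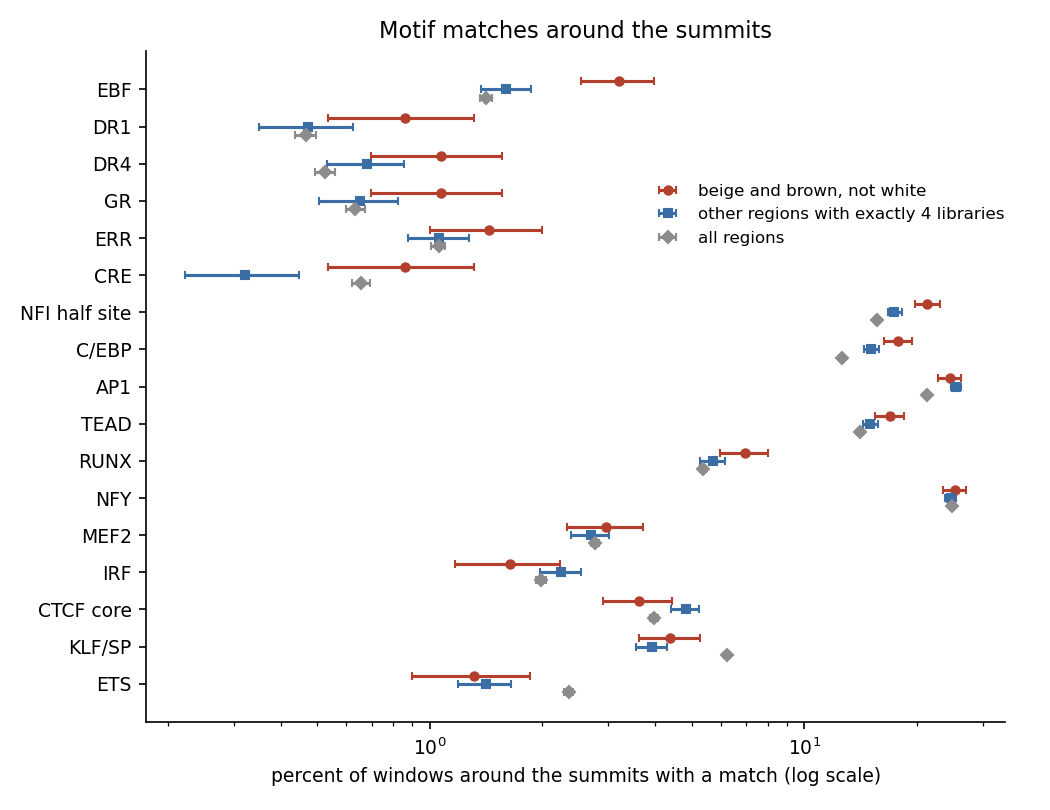
Percent of regions with a motif match within 100 bp of the summit (horizontal log axis), with 95% Clopper-Pearson intervals, for members, other regions open in exactly 4 libraries and all regions. EBF stands at 3.20% in members against 1.60% and 1.41%, the NFI half-site at 21.3% against 17.4% and 15.6%, and NFY at nearly the same share in all 3.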

How the data were processed

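ATAC-seq peaks of 6 libraries (2 each of beige, white and brown adipocytes) were analysed. The authors deposited a narrowPeak list per library, called with MACS2. The study's methods (adaptors trimmed with Trimmomatic, reads aligned to mm10 with BWA, peaks kept at q under 0.05) were read as those of the beige and white libraries, since they do not describe brown cultures. The lowest −log10 q in each of the 6 lists lay between 1.301 and 1.309, just above the 1.30 that q of 0.05 gives. The labels name BWA, SAMtools, MACS2, deepTools and DESeq2 and the build mm10, for all 6 libraries, without versions. For the brown libraries, versions and the q threshold are not given in the sources used here. The deposited columns hold a fold enrichment (ratio) at the summit, −log10 p and −log10 q values, a score and the summit's offset. The study reports read counts for the beige and white libraries, with more mapped reads in each white than in each beige library. Read depth of the brown libraries is not given. Whether depth affected which peaks were called was not tested. The labels give 5 µg/ml insulin in all media. The study's methods give lower concentrations for beige and white, with less in the beige medium than in the white medium.

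Lines sharing an interval were taken as 1 peak with several summits. Intervals were merged as described, and a region's position is the median of its libraries' strongest summits. Start sites came from protein-coding basic transcripts of GENCODE mouse release 21 (45065 transcripts, 21827 genes, all list genes found). Sequence came from the GRCm38 reference. Shares carry exact 95% Clopper-Pearson intervals, and no test was run. Intervals came from scipy 1.17.1, merging from numpy 2.4.6 and pandas 2.3.3 under Python 3.11.15, and plots from matplotlib 3.10.9. The scripts were checked on simulated lists and planted motifs.

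The genes named were the 20 nearest to the most members, list genes with a member (up to 10 per list), the 15 highest-ranked members, the largest clusters (6 tied at 3 members, all described), list genes with a promoter member, and Ucp1. A few genes that this rule names are not reported here. Members and lists were chosen with earlier results of these data known. The alternatives were minimum −log10 q of 2 and 5, lists of equal length, other merging distances, each library left out, other promoter, cluster and motif limits, and gene bodies in place of starts. The same alternatives for the EBF share and for the thermogenic and PPAR lists, and the GC weighting, were chosen after the data were seen.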

Additional observations from a re-analysis of the deposited data

How the results depend on the processing

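The number of regions open in beige and brown and not white stayed between 2235 and 2441 under other q thresholds, equally long lists and other merging, and rose when a library was left out, to between 3066 and 5684. Leaving out a white library moved it most (5684 without replicate 1, 5674 without replicate 2), and leaving out brown replicate 2 gave 4130. The class thus depends on each white library. With a library left out, the number of nearest genes ranged from 2468 to 4110 (4075 and 4110 without a white library, 3196 without brown replicate 2), the promoter share from 5.11% to 7.21%, the share followed by another member from 2.94% to 4.56% (4.56% and 4.07% without a white library), the median width from 291 to 340 bp and the median summit distance from 22 to 25 bp. The DR1 share ranged from 0.758% to 0.935% and the EBF share from 2.59% to 2.90%, below the 3.20% reported in each case.

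At −log10 q of at least 5 the median width was 374 bp and the summit distance 22 bp. Merging intervals up to 100 bp apart gave a promoter share of 3.98%, a width of 351 bp and a summit distance of 26.0 bp. The share followed by another member was then 2.24% (50 of 2235). Promoters of 3 kb held 10.1%. Windows of 50 and 250 bp to each side gave DR1 shares of 0.410% and 1.39% and EBF shares of 2.05% and 4.31%, and half-sites AGGTCA only gave 0.0820% (2 members). Cluster gaps of 5 and 50 kb gave 3 and 33 clusters of 3 or more. The thermogenic share fell to 3.54% (8 of 226 regions) with equally long lists, against 1.33% of all regions and 4.79% of PPAR target genes, and otherwise lay between 5.46% and 8.91%. That of PPAR target genes lay between 4.35% and 7.69%. The share of all regions was 3.16% and 3.07% without white replicate 1 or 2, where the thermogenic share was 7.20% and 8.91% and the PPAR target share 7.69% and 6.91%, so the order of these lists depends on the setting. What caused these shifts was not tested. No paired analysis was possible because these results come from no test. Whether libraries of the same number share mice or cultures is not given. Peak lists without read counts leave small differences in openness unseen.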
